A study of Mus musculus with 105 samples.

Results

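The comparison described here asks what S12N-SUV2 changed in mouse embryonic stem cells that lack Suz12, without degradation of RBBP5. It sets the 3 libraries of RS with S12N-SUV2 in DMSO against the 3 libraries of RS in DMSO, 6 of the 105 samples of the series, over all genes of the count table. Of the 53656 genes listed, 15757 passed a filter on low counts and were tested.

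All lines derive from E14TG2a, a mouse embryonic stem cell line, grown in serum with LIF. R carries RBBP5 tagged with FKBP, RS carries the tag together with a Suz12 knockout, and the fusion line is RS that also expresses S12N-SUV2. S12N is SUZ12 without its VEFS domain, and the labels do not spell out SUV2. Every culture of the main comparison received DMSO, the vehicle of the degrader dTAG13, for 24 h, and all of them carried the tag on RBBP5, so the tag is shared by both sides. R in DMSO, also 3 libraries, is given as a level beside the others. Each genotype is its own line and the labels do not say whether it is 1 clone, so the effect of the fusion cannot be told apart from differences between lines. Per the labels the libraries are biological triplicates.

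SUZ12 is a core subunit of PRC2, a Polycomb complex whose methylation of lysine 27 on histone H3 keeps developmental genes silent in embryonic stem cells. Its VEFS domain binds and activates the catalytic subunit, and the other end of the protein is known for targeting the complex to chromatin. RBBP5 is a shared subunit of the COMPASS complexes, which methylate histone H3 at lysine 4. Mouse embryonic stem cells without PRC2 keep their pluripotency factors but are known to express lineage genes, those of the endoderm among them.

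Suz12, on chromosome 11 from 79993106 to 80034123 in GRCm38, had 102, 102 and 98.6 CPM (counts scaled by library size) in the fusion line, against 33.4, 31.4 and 31.2 CPM in RS and 380, 388 and 386 CPM in R. The fusion libraries lay above all RS libraries and below all R libraries, and the log2 fold change of the fusion line over RS was 1.65 ± 0.04 (standard error, n = 3 per group, as for each ± below; edgeR adjusted p = 6.86e-26). The table counts reads per gene, so reads of the construct and of the disrupted gene were not separated. Rbbp5 had 75.4, 76.8 and 74.9 CPM in the fusion line and 82.4, 78.7 and 84.4 CPM in RS, a log2 difference of -0.11 ± 0.04 (edgeR adjusted p = 0.0114), and leaving out replicate 3 of the fusion line or of RS raised its adjusted p to 0.0601 or 0.0687. Both groups held the defining markers of embryonic stem cells. Pou5f1 averaged 694 ± 12.5 CPM in the fusion line and 611 ± 22.1 CPM in RS (SD, n = 3 each), and Zfp42 averaged 808 ± 8.04 and 795 ± 23 CPM in the same order (SD, n = 3 each).

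Over all genes, more of the large changes were decreases. With an edgeR adjusted p under 0.05, 3676 genes were higher in the fusion line, 23.3% of those tested, and 3997 were lower, 25.4%. The counts of list members below are to be read against these shares, and some lie near them. At least 2-fold higher were 175 genes (1.11%), and at least 2-fold lower were 989 (6.28%). The median log2 fold change of all genes tested was -0.00448. The share of the called genes that were higher was 47.9% with the TMM scaling used here and 35.2% when libraries were scaled by their total alone, which shifted the median of all genes to -0.0567. Replicates differed little, with a common biological coefficient of variation of 0.0281, so small differences passed the test, and fold size is given beside each call.

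Most decreases of at least 2-fold were in weakly expressed genes. Of genes at 1 to 5 CPM in RS, 14.7% were at least 2-fold lower in the fusion line, against 5.38% of those at 5 to 20 CPM, 1.04% of those at 20 to 100 CPM and 0.336% of the 2382 genes above 100 CPM. None of those 2382 genes was at least 2-fold higher. Of the 2496 genes under 1 CPM in RS, 13% were at least 2-fold lower and 3.69% at least 2-fold higher. The latter were 92 of the 175 genes at least 2-fold higher. The classes use the level in RS, which is also in the fold change, so they are a description.

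**Figure D1:**
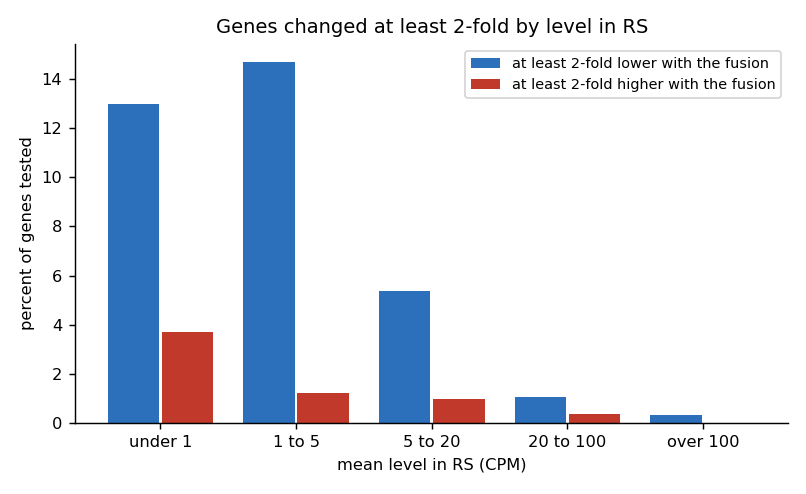
Share of the genes tested (percent, vertical axis) that were at least 2-fold lower (blue) or higher (red) in RS with S12N-SUV2 than in RS, by mean level in RS (CPM, horizontal axis). The share of lower genes was 14.7% at 1 to 5 CPM and 0.336% above 100 CPM.

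**Figure D2:**
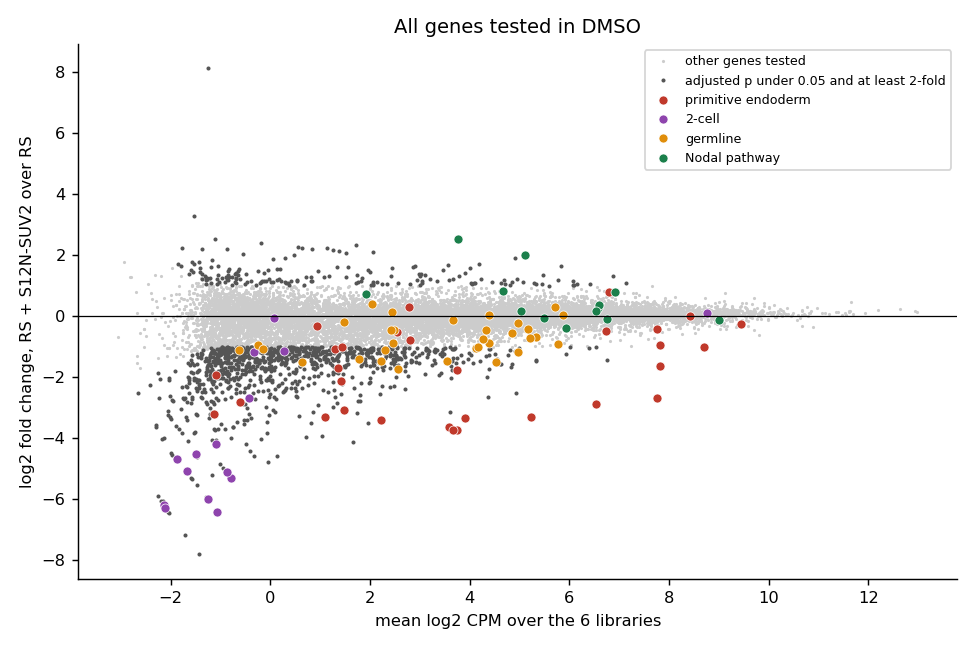
Log2 fold change of RS with S12N-SUV2 over RS in DMSO (vertical axis) against the mean log2 CPM of the 6 libraries (horizontal axis), 1 point a gene, with 4 gene lists in colour. Primitive endoderm genes reached -3.74 and many 2-cell genes lay lower still, at low levels, where a fitted fold change of a gene with no count in 1 group depends on the prior count.

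Among the genes of large decrease were many of the primitive endoderm, the extraembryonic layer that forms beside the epiblast in the blastocyst. Of 30 measured primitive endoderm genes, 26 fell and 20 of them fell at least 2-fold, 2 rose and 2 did not pass the test, and the list's median log2 fold change was -1.73. In bulk RNA, fewer cells of a type and less RNA per cell cannot be told apart. The summed level of the list ranged from 2100 to 2240 CPM in the fusion line, from 3920 to 4220 CPM in RS and from 1800 to 1960 CPM in R. Several of its transcription factors were among those that fell.

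Gata6, a GATA factor that specifies the primitive endoderm, had 3.22, 3.30 and 3.58 CPM in the fusion line, against 42.0, 38.7 and 44.4 CPM in RS and 0.399, 0.310 and 0.432 CPM in R, a log2 fold change of fusion line over RS of -3.62 ± 0.09 (edgeR adjusted p = 2.32e-25). The fusion line and RS did not overlap, as the rule for naming genes by size required. The fusion libraries stood between RS and R. Sox17, an SRY-box factor of the endoderm, had 1.61, 0.944 and 1.62 CPM in the fusion line and 16.8, 13.8 and 13.9 CPM in RS, a log2 fold change of -3.40 ± 0.16. Gata4, Hnf4a, Foxa2 and Sox7, further transcription factors of the endoderm, fell with log2 fold changes of -1.76 ± 0.08, -1.94, -1.02 and -0.78 ± 0.10.

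Receptors and uptake proteins of the lineage fell by unequal amounts. Pdgfra, the receptor tyrosine kinase for platelet-derived growth factor that marks the primitive endoderm, had 3.70, 3.46 and 3.10 CPM in the fusion line, against 46.5, 43.2 and 47.4 CPM in RS and 0.649, 1.03 and 0.541 CPM in R. That is a log2 fold change of -3.74 ± 0.09 (edgeR adjusted p = 1.44e-25). Cubn, the endocytic receptor cubilin of the visceral endoderm, had 3.38, 3.67 and 3.82 CPM in the fusion line and 48.8, 42.3 and 53.9 CPM in RS, a log2 fold change of -3.73 ± 0.10. Dab2, a clathrin adaptor of endocytosis, had 4.72, 4.77 and 4.49 CPM in the fusion line and 52.0, 44.2 and 45.6 CPM in RS, a log2 fold change of -3.34 ± 0.08. For each of the 3 genes every fusion library lay below every RS library, as the rule for naming genes by size required. Amn, the partner of cubilin, fell less (-1.07), and Lrp2, the endocytic receptor megalin, fell by 0.51 on the log2 scale.

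The promoter windows of these 3 genes, from RefSeq in GRCm38.p6, are shown because the genes moved together; each runs 5' to 3' from 250 bases before to 50 bases after the start, with GATAA on either strand (TTATC on the other), the core of sites bound by GATA factors, in capitals.
Pdgfra, chr5:75152001-75152300, plus strand: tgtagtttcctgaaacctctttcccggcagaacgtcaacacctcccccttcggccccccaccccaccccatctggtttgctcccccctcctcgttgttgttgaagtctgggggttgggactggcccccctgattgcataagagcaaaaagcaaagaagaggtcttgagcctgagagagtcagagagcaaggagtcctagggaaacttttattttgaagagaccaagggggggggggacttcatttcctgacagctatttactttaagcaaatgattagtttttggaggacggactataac
Cubn, chr2:13491827-13492126, minus strand: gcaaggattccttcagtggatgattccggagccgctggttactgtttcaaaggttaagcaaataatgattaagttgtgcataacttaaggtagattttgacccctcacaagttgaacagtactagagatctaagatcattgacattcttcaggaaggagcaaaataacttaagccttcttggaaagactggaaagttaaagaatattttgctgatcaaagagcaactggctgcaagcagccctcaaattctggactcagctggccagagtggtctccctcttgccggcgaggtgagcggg
Dab2, chr15:6299539-6299838, plus strand: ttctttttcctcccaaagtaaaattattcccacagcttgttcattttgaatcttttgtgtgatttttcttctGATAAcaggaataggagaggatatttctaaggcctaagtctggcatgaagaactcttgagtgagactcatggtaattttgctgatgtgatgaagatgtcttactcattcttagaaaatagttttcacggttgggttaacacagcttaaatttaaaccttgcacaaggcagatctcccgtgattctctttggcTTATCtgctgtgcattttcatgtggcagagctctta
The window of Dab2 held the letters at 2 places, and those of Pdgfra and Cubn held none. Of the 32851 windows of the same length in the RefSeq table, 25.4% held them. A match is a description of the letters.

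Collagen genes and some other genes of the extracellular matrix fell too. Col4a1 and Col4a2, the chains of basement membrane collagen, lie head to head on the genome. Col4a1 had 80.0, 87.9 and 87.9 CPM in the fusion line, against 582, 530 and 551 CPM in RS and 12.8, 12.7 and 13.1 CPM in R, a log2 fold change of -2.70 ± 0.04 (edgeR adjusted p = 1.95e-31). Col4a2 had 29.1, 38.2 and 36.2 CPM in the fusion line and 257, 243 and 264 CPM in RS, a log2 fold change of -2.88 ± 0.05. Neither gene overlapped between groups. Lama1, a laminin chain of the basement membrane, averaged 128 ± 8.61 CPM in the fusion line and 400 ± 29.8 CPM in RS (SD, n = 3 each). Serpinh1, the collagen chaperone HSP47, had 11.6, 11.7 and 12.5 CPM in the fusion line and 130, 110 and 113 CPM in RS, a log2 fold change of -3.30 ± 0.07. P4ha2 and P4ha1, catalytic subunits of the prolyl hydroxylase that modifies collagen, fell by 1.72 and 1.00 on the log2 scale. Over 19 measured collagen genes 17 fell and 1 rose, and the median log2 fold change was -1.37; Col18a1 was the one that rose (0.47).

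Further genes of large decrease had other roles. Dkk1, a secreted Wnt antagonist, had 0.858, 1.15 and 1.29 CPM in the fusion line and 14.5, 11.4 and 12.1 CPM in RS, a log2 fold change of -3.51 ± 0.16. Foxq1, a forkhead factor, had 0.590, 0.787 and 0.716 CPM in the fusion line, against 13, 12.4 and 11.8 CPM in RS, and its log2 fold change of -4.14 ± 0.16 was the largest decrease among the genes named by size. Klb, the co-receptor beta-Klotho, had 28 reads in all fusion libraries and 470 in all RS libraries, a log2 ratio of -3.95 with a 95% counting interval from -4.56 to -3.40. Vsir, an immune checkpoint receptor, had 1.45, 1.05 and 0.716 CPM in the fusion line and 9.69, 9.06 and 10.4 CPM in RS. In the list of 45 measured signalling genes bound by PRC2, 23 fell and 8 rose (median -0.51), with Bmp6, Wnt4 and Ihh among those that fell (-2.19, -2 and -1.53).

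**Figure D3:**
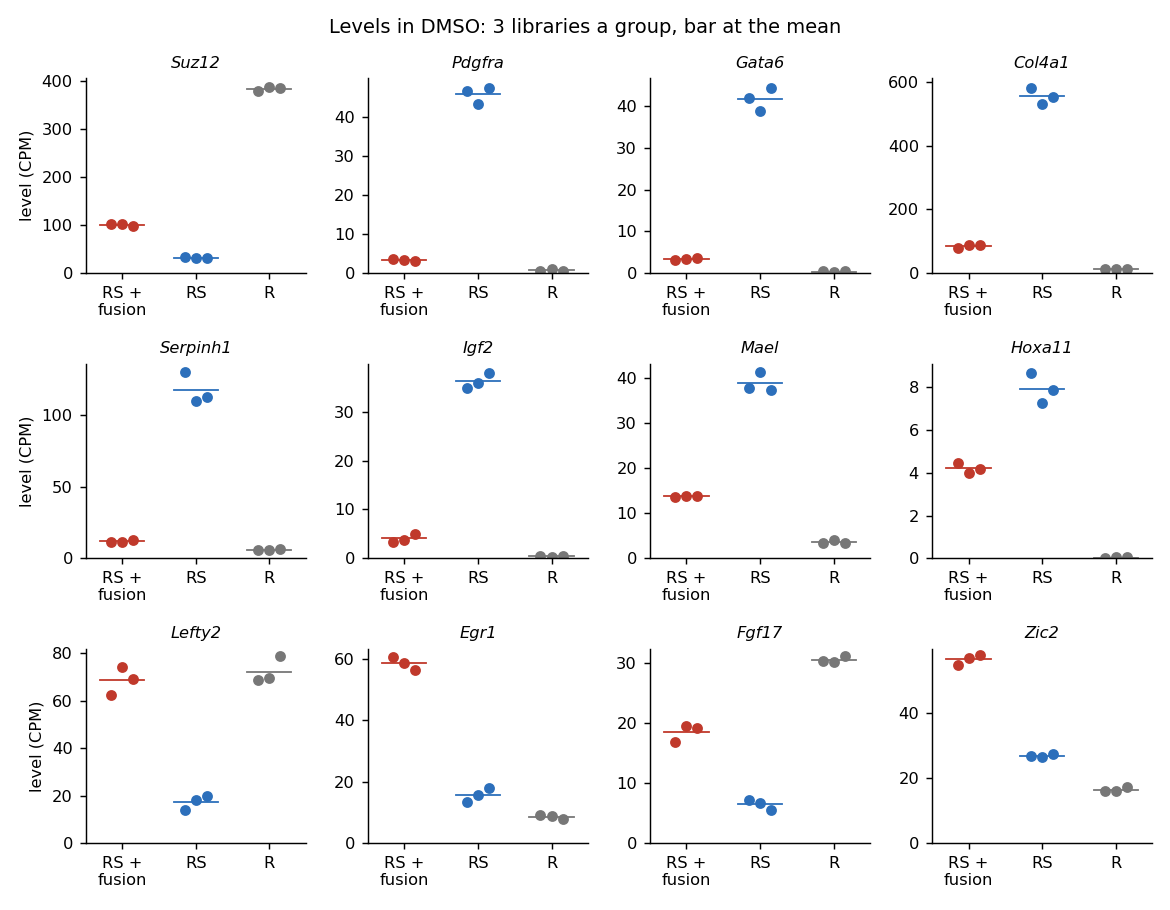
Level (CPM, vertical axes from 0) of 12 genes in the 3 libraries of RS with S12N-SUV2, RS and R in DMSO, 1 point a library and a bar at the mean. Pdgfra, Gata6, Col4a1, Serpinh1, Igf2, Mael and Hoxa11 were lower with the fusion than in RS in every library, and Suz12, Lefty2, Egr1, Fgf17 and Zic2 were higher. For the genes named by size the naming rule required this.

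Most measured genes of the 2-cell state, which a small share of mouse embryonic stem cells is known to express in bursts, had fewer reads with the fusion. Of 15 measured members 13 fell, each at least 2-fold, and 1 rose, and the median log2 fold change was -4.70, or -4.20 with the 2 members that had no read in 1 group set at their bound. The summed level of the list did not fall, with 448 to 461 CPM in the fusion line, 429 to 458 CPM in RS and 415 to 425 CPM in R. Nearly all of it was Eif1a, a translation initiation factor gene, with 459, 454 and 445 CPM in the fusion line and 411, 439 and 418 CPM in RS, and this was the member that rose (0.10), though not past the threshold with scaling by library total. Zscan4d, a zinc finger gene of the 2-cell embryo, had 0, 0.105 and 0.0477 CPM in the fusion line, from 3 reads in all, and 2.11, 2.07 and 1.77 CPM in RS, from 127 reads. The log2 ratio of the scaled counts was -5.29, with a 95% counting interval from -7.58 to -3.71. Zscan4a had 1 read in the fusion libraries and 125 in RS (log2 ratio -6.85, interval from -12.16 to -4.34), and Usp17le had 3 and 143 reads (log2 ratio -5.46, interval from -7.75 to -3.88). Zscan4e had no read in the fusion libraries and 30 in RS, so that it fell by at least 3.2 on the log2 scale when 3 counts are allowed for the whole group. R was low as well, with 0.150, 0.155 and 0.108 CPM of Zscan4d. Members with so few reads outside RS passed the filter on low counts, which works by group, only through RS. The filter thus favoured a decrease for them, and the count of 13 and the median of -4.70 partly reflect it. The Zscan4 and Usp17l genes are near-identical copies, so reads could be split between or withheld from them in counting, and single values are uncertain.

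Germline genes fell by smaller folds. Of 32 measured, 25 fell, 2 rose and 5 did not pass the test (median -0.81). Mael, of the piRNA pathway that silences transposons, had 13.6, 13.9 and 13.8 CPM in the fusion line, against 37.9, 41.4 and 37.4 CPM in RS and 3.34, 4.08 and 3.41 CPM in R, a log2 fold change of -1.5 ± 0.06. Dazl, an RNA-binding protein of germ cells, had 7.99, 6.5 and 6.54 CPM in the fusion line and 19.2, 19.7 and 19.6 CPM in RS (-1.48 ± 0.09), and Sohlh2, a germ cell transcription factor, fell by 1.17 ± 0.05. No library of the fusion line reached RS for these 3 genes. Stag3 and Sycp3, of the meiotic chromosome axis, were the 2 that rose (0.30 and 0.41).

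Of 21 measured trophoblast genes 15 fell and 2 rose (median -0.862), where 25.4% of all genes tested fell and 23.3% rose. With active against dead S12N-SUV2 in the fusion panel described below, 3 of 19 were lower and 4 higher (median 0.154). Of the transcription factors at the top of that lineage, Cdx2, Eomes and Gata3 did not pass the test (log2 fold change 0.15 ± 0.13, 0.15 ± 0.08 and -0.06 ± 0.10). Elf5, another of them, fell, with 6 reads in the fusion libraries and 29 in RS (log2 ratio -2.15, interval from -3.71 to -0.86). Its reads in the fusion line were too few for the filter on low counts, so it passed through other groups, which favoured a decrease. Igf2, an imprinted growth factor, had 3.32, 3.83 and 5.06 CPM in the fusion line, against 34.9, 36.0 and 38 CPM in RS and 0.499, 0.258 and 0.378 CPM in R, a log2 fold change of -3.14 ± 0.09. The keratins Krt8, Krt18, Krt7 and Krt19 fell with log2 fold changes of -0.97 ± 0.05, -0.74 ± 0.05, -2.28 ± 0.14 and -0.84 ± 0.11. Among 40 measured imprinted genes 20 fell and 11 rose (median -0.181), beside the same shares of all genes. H19, the RNA next to Igf2, had 14 reads in the fusion libraries and 174 in RS (log2 ratio -3.52, interval from -4.42 to -2.73), whereas Meg3, Rian and Mirg, of the other imprinted RNA cluster, rose by 0.96 ± 0.10, 0.86 ± 0.05 and 0.84. The filter favoured a decrease of H19 as it did for Elf5.

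Hox genes and developmental transcription factors, the best known PRC2 targets, had smaller median changes than the endoderm genes. Of 28 measured Hox genes 13 fell, none rose and 15 did not pass the test (median -0.489). Hoxa11 had 4.45, 3.99 and 4.20 CPM in the fusion line, against 8.68, 7.26 and 7.87 CPM in RS and 0, 0.0516 and 0.0541 CPM in R, a log2 fold change of -0.91 ± 0.11. Hoxa10 had 9.59, 9.39 and 9.88 CPM in the fusion line and 14.5, 14.1 and 14.9 CPM in RS (-0.59 ± 0.08). In both genes the fusion line was below RS and above R in every library. Hoxd13, Hoxa13 and Hoxb7 had log2 fold changes of 0.02, -0.04 and -0.12 and did not pass the test. Of 136 measured developmental transcription factors 62 fell, 22 rose and 52 did not pass the test (median -0.35). Runx1, a haematopoietic factor, fell by 2.86 ± 0.22, and Neurog1, a proneural factor, had 7 reads in the fusion libraries and 100 in RS. With so few reads in the fusion line, Neurog1 passed the filter on low counts through other groups, which favoured a decrease. The count of 62 includes it. Pax7 (1.5 ± 0.13), Prdm1 (1.32 ± 0.07) and Gbx2 (1.05) rose.

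Genes derepressed without Suz12 were also followed with a list drawn from other libraries. Genes at least 2-fold higher in a Suz12 knockout than in wild type in another dataset of the series, whose 6 libraries are not used elsewhere here, are called Suz12-responsive. They were 1166 of the 12829 genes tested there (9.09%), and 219 (1.71%) were at least 2-fold lower. Of 1074 Suz12-responsive genes measured, 734 fell, 70 rose and 270 did not pass the test, and 281 fell at least 2-fold. Their median log2 fold change was -0.551, and their median level was 3.96 CPM in the fusion line, 6.4 CPM in RS and 2.08 CPM in R. Serpine2, a protease inhibitor and one of them, had 8.04, 8.39 and 8.26 CPM in the fusion line, against 53.3, 50.6 and 51.0 CPM in RS and 16.9, 18 and 17.5 CPM in R, so here the fusion line was lowest. The list of genes lower in that knockout had 180 measured members, of which 90 rose and 12 fell (median 0.323). Socs2, an inhibitor of cytokine signalling, had 70.6, 70.3 and 71.2 CPM in the fusion line and 27.7, 27.6 and 27.4 CPM in RS (1.36 ± 0.04), and Nr0b1, the pluripotency-associated receptor Dax1, had 209, 195 and 213 CPM against 90.9, 102 and 98.2 CPM in the same order (1.08 ± 0.03).

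Lefty1 and Lefty2, of the Nodal pathway, were among the named genes of largest increase. Lefty1, a secreted Nodal antagonist and feedback target of the pathway, had 28.7, 35.3 and 34.6 CPM in the fusion line, against 3.72, 6.33 and 7.09 CPM in RS and 57.2, 59.3 and 65.0 CPM in R, a log2 fold change of 2.54 ± 0.11 (edgeR adjusted p = 3.57e-18). Lefty2, its neighbour on chromosome 1, had 62.5, 74.3 and 69.2 CPM in the fusion line, against 14.2, 18.1 and 19.8 CPM in RS and 68.6, 69.5 and 78.7 CPM in R, a log2 fold change of 1.99 ± 0.08. Both were above RS in every fusion library, as the rule for naming genes by size required, and for Lefty2 the fusion line overlapped R. Nodal itself, the ligand, fell slightly (-0.11), and Skil, a Smad corepressor, and Bmp4, a ligand, rose (0.80 ± 0.04 and 0.83 ± 0.05). Of the 13 measured genes of the list 9 rose, 3 fell and 1 did not pass the test (median 0.273).

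Genes of the primed epiblast rose more often than they fell. Of 18 measured 11 rose and 5 fell (median 0.37). Zic2, a zinc finger factor, had 54.7, 56.9 and 57.6 CPM in the fusion line, against 26.7, 26.5 and 27.3 CPM in RS and 16.0, 16.0 and 17.2 CPM in R, a log2 fold change of 1.07 ± 0.05. Lef1, a transcription factor of the Wnt pathway, had 30.7, 25.8 and 29.2 CPM in the fusion line and 12.2, 12.7 and 12.1 CPM in RS (1.21 ± 0.07). Neither overlapped between the fusion line and RS, and both had their highest level in the fusion line. Dnmt3a, a DNA methyltransferase, fell instead (-0.89 ± 0.05), and its cofactor Dnmt3l rose (0.77 ± 0.03). Sp5, a Wnt target, had 5.52, 5.72 and 5.87 CPM in the fusion line and 1.19, 1.67 and 1.20 CPM in RS. The Wnt response list as a whole was split, with 5 of 17 higher and 7 lower, beside 23.3% and 25.4% of all genes tested.

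Other increases of large size were in genes of varied roles. Egr1, an immediate early transcription factor, had 60.7, 58.6 and 56.4 CPM in the fusion line, against 13.5, 15.7 and 17.9 CPM in RS and 9.33, 8.78 and 8.00 CPM in R (log2 fold change 1.91 ± 0.06). Krt17, a keratin, had 32.5, 33.0 and 32.0 CPM in the fusion line, against 9.65, 9.98 and 10.4 CPM in RS and 114, 115 and 117 CPM in R (1.70 ± 0.06). Fgf17, a fibroblast growth factor ligand, rose by 1.5 ± 0.08. Gad1, which makes the transmitter GABA, and Slc23a1, a vitamin C transporter, rose by 2.11 ± 0.13 and 2.31 ± 0.15. Each of these genes was higher in all 3 fusion libraries than in any RS library. For all of them but Fgf17 the rule for naming genes by size required this. Vrtn, Ripply1, Zfp600 and the RNA Platr14 rose as well (2.23 ± 0.18, 2.12 ± 0.16, 1.68 ± 0.13 and 1.65 ± 0.10).

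**Figure D4:**
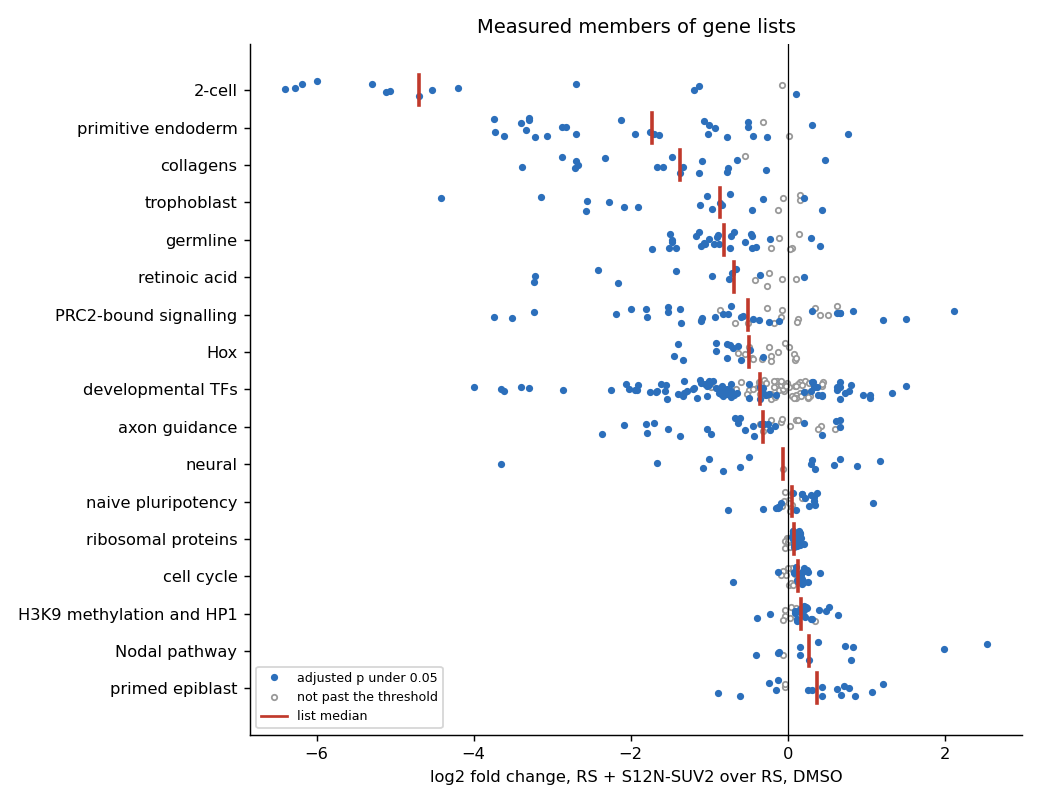
Log2 fold change of RS with S12N-SUV2 over RS in DMSO (horizontal axis) for the measured members of 17 gene lists, 1 point a gene, filled where the adjusted p was under 0.05, with the list median as a red bar. The medians were -4.70 for 2-cell, -1.73 for primitive endoderm, -0.489 for Hox and 0.37 for primed epiblast genes.

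The lists of chromatin genes had small median changes. Among 13 measured PRC2 subunits, 9 rose, Suz12 included, and Aebp2 and Rbbp7 fell (median 0.173). Mtf2 and Jarid2, accessory subunits that help recruit PRC2, had log2 fold changes of 0.34 ± 0.02 and 0.33 ± 0.02, and Ezh2 and Eed, the other core subunits, 0.17 and 0.22. Of 29 measured genes of H3K9 methylation and HP1, 20 rose and 2 fell (median 0.17), or 16 and 4 with scaling by library total. Suv39h1, a H3K9 methyltransferase, fell, with 20.3, 20.7 and 19.9 CPM in the fusion line and 26.5, 27.2 and 25.9 CPM in RS (-0.39 ± 0.05). Suv39h2, its paralog, rose, with 54.1, 53.7 and 50.7 CPM in the fusion line and 38.4, 38.7 and 32.4 CPM in RS (0.53 ± 0.05), close to the 48.0, 47.7 and 46.3 CPM of R. Since the labels do not spell out SUV2, whether reads of the construct were counted in these genes cannot be told.

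Lists of general programmes had small median changes too. Beside their counts, 23.3% of all genes tested were higher and 25.4% lower. Of 30 measured naive pluripotency genes 13 rose and 7 fell (median 0.0494), or 11 and 9 with scaling by library total (median -0.00273), and Nanog fell by 0.32 ± 0.03. Ribosomal protein genes had 29 of 46 members higher and none lower (median 0.0756), a split that became 14 higher and 4 lower with scaling by library total (median 0.0237). Cell cycle genes had 22 of 34 higher and 2 lower (median 0.135), or 17 and 5 with that scaling, and the 24 measured p53 target genes had 7 higher and 15 lower (median -0.145), with Pmaip1, the proapoptotic gene Noxa, at -1.47 ± 0.05. The interferon list had 4 of 21 higher and 8 lower (median 0.0591). Among the lower ones were Psmb9, Tap1 and B2m of antigen presentation (-2.21 ± 0.19, -1.54 ± 0.13 and -1.08 ± 0.07). Ifitm3 was among the higher ones (1.00 ± 0.04).

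Markers of feeder fibroblasts were followed because collagens fell. All 7 measured fibroblast genes fell (median -0.816), with a summed level of 186 to 192 CPM in the fusion line and 208 to 221 CPM in RS. Of 6 marker genes, 3 were near 0 in both groups: Postn had 0 reads in the 3 fusion libraries and 1 in the 3 RS libraries, Col3a1 had 1 and 4, and Dcn had 4 and 2. The other 3 were detected and fell: Thy1 averaged 7.12 CPM in the fusion line and 8.85 CPM in RS (-0.31 ± 0.10), Col1a1 averaged 1.53 and 2.65 CPM in the same order (-0.77 ± 0.19), and Col1a2 had 16 and 116 reads (log2 ratio -2.74, interval from -3.59 to -1.98). The part of other cells in the decrease of collagen genes was not tested. Neural genes were split, with 7 of 15 higher and 7 lower. Mesoderm genes had 4 of 14 higher and 8 lower, with a summed level of 258 to 278 CPM in the fusion line and 254 to 270 CPM in RS. That list includes Lefty1 and Lefty2, which rose, so the sum holds their increase. They averaged 32.8 and 68.7 CPM in the fusion line and 5.71 and 17.4 CPM in RS. The markers T, Mixl1 and Mesp1 averaged at most 1.4 CPM in either group. Kdr, a receptor for vascular endothelial growth factor, averaged 10.6 CPM in the fusion line and 15.9 CPM in RS (-0.58 ± 0.09), and Hand1, a transcription factor, averaged 11.5 and 25.2 CPM in the same order (-1.12 ± 0.07).

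The same fusion contrast in dTAG13, which shares no library with that in DMSO, was used to look at the genes again. It uses the same lines and the same fit, so it does not separate the fusion from a difference between lines. There 3803 genes were higher (24.1%) and 3698 lower (23.5%). Of the 989 genes at least 2-fold lower in DMSO, 820 (82.9%) were lower in dTAG13, which are 22.2% of all genes lower there, and of the 175 at least 2-fold higher, 116 (66.3%) were higher, 3.05% of those higher there. At the 2-fold size in both, 716 lower genes were shared, 72.4% of the genes in DMSO and 66.9% of the 1071 in dTAG13. For Pdgfra the log2 fold change was -3.98 in dTAG13 and for Gata6 -3.58, beside -3.74 and -3.62 in DMSO.

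The size of the fusion effect differed between dTAG13 and DMSO for 1689 genes (10.7%, edgeR test of the interaction), 799 of them shifted up and 890 down in dTAG13. The endoderm genes Gata6, Sox17, Pdgfra, Cubn, Dab2 and Serpinh1, named by size, had differences of 0.04, -0.07, -0.24, 0.30, 0.10 and -0.17, none past the threshold. Over the 30 measured primitive endoderm genes, 4 shifted up and 1 down past it. In the Nodal pathway list 2 of 13 shifted up and 7 down, and of 18 primed epiblast genes 1 shifted up and 8 down. Lefty2 had a smaller increase in dTAG13, 0.89 against 1.99 in DMSO, a difference of -1.10 (edgeR adjusted p = 6.58e-06). Egr1 had 0.95 against 1.91, a difference of -0.96 (edgeR adjusted p = 1.36e-08), and Krt17 had 0.64 against 1.70, a difference of -1.06 (edgeR adjusted p = 4.05e-08).

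In a separate fusion panel of the series, the knockout with active S12N-SUV2 was set against the knockout with the version called dead. In those 16230 genes tested, 1593 were higher (9.82%) and 2083 lower (12.8%). Of the 989 genes at least 2-fold lower with the fusion here, 904 were tested in the panel, of which 575 (63.6%) were lower and 8 higher with the active version, and the 575 are 29.9% of the 1921 genes lower there that were tested in both. Of the 175 higher genes 162 were tested there, with 79 higher and 9 lower. Pdgfra, Gata6, Dab2 and Serpinh1 had log2 fold changes of -2.78, -3.08, -3.15 and -3.02 in the panel. Lefty1, the gene of largest increase among those named by size, did not pass the test in the panel (0.17), and Lefty2 was lower there (-0.50). Gad1, Krt17 and Egr1 did not pass there either (0.05, -0.03 and 0.62), and Suz12 was lower (-0.39). Both sides of the panel carry S12N-SUV2, active or dead, whereas RS carries no fusion, so the values for Suz12 are not like for like. Slc23a1, Vrtn, Ripply1, Sp5, Zfp600 and Platr14 were higher in the panel (1.76, 0.92, 0.54, 0.81, 0.91 and 1.24).

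**Figure D5:**
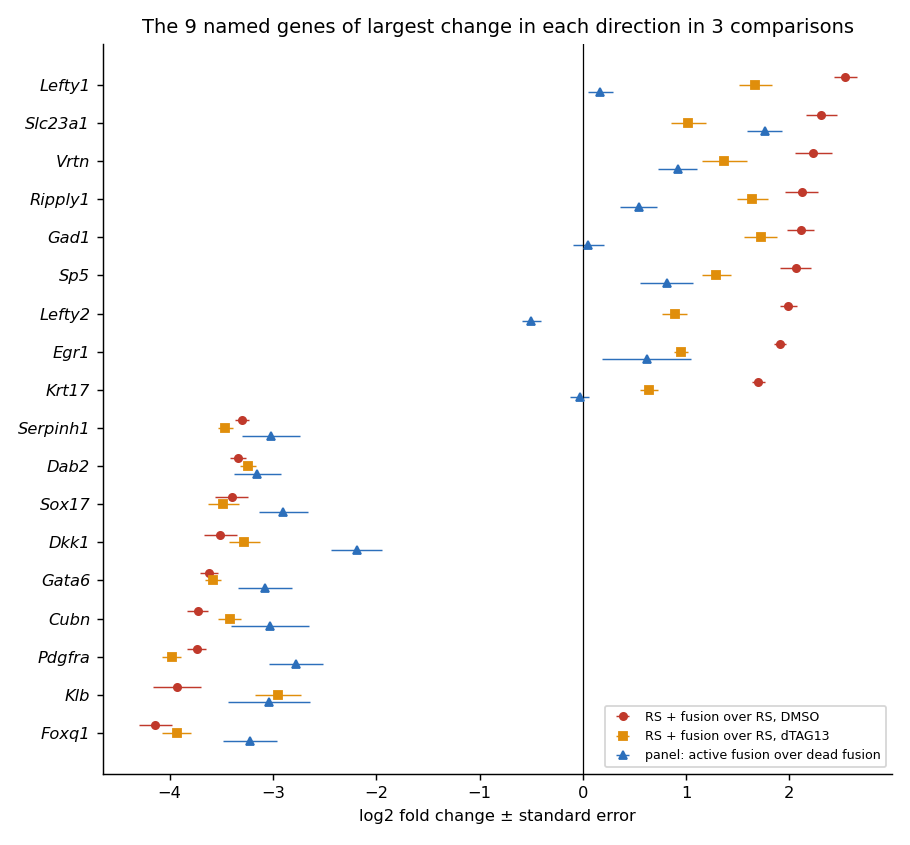
Log2 fold change with its standard error (horizontal axis) of the 9 named genes of largest change in each direction in 3 comparisons: RS with S12N-SUV2 over RS in DMSO (red) and in dTAG13 (orange), and active over dead S12N-SUV2 in the panel (blue). The lower genes were lower in all 3, and among the higher genes Lefty2 had 1.99, 0.89 and -0.50.

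The position of the changed genes was described by their nearest tested neighbours. Of 871 genes at least 2-fold lower with a unique place in the GENCODE annotation of GRCm38, 161 (18.5%) had a nearest tested neighbour that was also at least 2-fold lower, beside 6.55% of the 13307 placed genes. Of 117 placed genes at least 2-fold higher, 5 (4.27%) had such a neighbour, beside 0.879%. Runs of 5 lower genes without another placed and tested gene between them were the Zscan4 genes on chromosome 7 from 10794242 to 11402318, and Psmb9, Tap1, Tap2, H2-Ab1 and H2-Eb1 of the major histocompatibility complex on chromosome 17 from 34181987 to 34316674. H19, Igf2, its antisense gene Igf2os and Ascl2 formed a run of 4 on chromosome 7 from 142575529 to 142969264. The kit does not mark strand, so reads of Igf2 and Igf2os cannot be told apart, and copies such as Zscan4 share reads.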

How the data were processed

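Poly(A) RNA was sequenced from the libraries of 6 groups of 3. The deposited values used are raw read counts per gene, made by the authors, and per the submitters' processing notes the tools were Trim Galore 0.4.5 for trimming, STAR 2.4 for alignment (genome build mm10) and HTSeq 0.9.1 for counting, and Picard and DESeq2 are listed too. Whether counting used strand is not given in the sources used here. Column names that differ from the titles were matched to groups by their wording, an inference: FullH2 in the RBBP5 table was read as S12N-SUV2, and the panel's columns were read likewise. The RBBP5 table held 18.59 to 22.26 M counts per library, and the fusion panel 8.80 to 29.97 M.

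All 18 libraries of the RBBP5 table entered 1 fit with edgeR 4.0.16 in R 4.3.3 (TMM scaling, filterByExpr by group, group means, quasi-likelihood F test, two-sided), with p adjusted by Benjamini and Hochberg over all genes tested and a threshold of 0.05. Standard errors are the absolute unshrunk log2 fold change divided by the root of F. The 24 panel libraries and 6 libraries of the HP1 dataset (knockout and wild type) were each fitted on their own. A log2 ratio of counts, given for genes with under 30 counts in a group, has a 95% counting interval, which covers counting error only. Some such genes are given by their reads or by a bound alone. Such a gene could pass the filter through other groups, which favours a lower value in the group with few reads. DESeq2 1.42.0, other scalings, no filter, a replicate block and leaving out libraries were tried. The test was checked on simulated counts.

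The members and the 36 gene lists were chosen with earlier results of these data known. Genes were named by rule: Suz12, Rbbp5, Suv39h1 and Suv39h2, the 12 higher and 12 lower genes of largest change that passed the test, averaged at least 1 on the log2 CPM scale over the 6 libraries and did not overlap between groups, without predicted genes, and up to 4 members of a list by smallest p. Some of these genes are not reported here. Other genes were chosen after their values were seen to show the range of a list. Promoter windows were found for under 80% of the genes in each direction, so no comparison of promoter content between gene sets is given.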

Additional observations from a re-analysis of the deposited data

Results flagged for a closer look

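The results below stand out because the effect of S12N-SUV2 in dTAG13 differed from that in DMSO, by an edgeR test of the interaction over all genes with 3 libraries per group; 1689 genes passed its threshold. Each value is the log2 fold change of the fusion line over RS in dTAG13 minus that in DMSO. Among the genes named by rule the difference was -0.35 for Suz12, 0.20 for Rbbp5, the degrader's target, -0.86 for Lefty1, -1.29 for Slc23a1, -0.77 for Sp5, -1.10 for Lefty2, -0.96 for Egr1, -1.06 for Krt17 and -0.60 for Platr14. Of the genes lower in the fusion line, Vsir had 0.94 and Igf2 -0.57, so that Vsir fell less far in dTAG13 and Igf2 further. The cause of these differences was not tested.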

How the results depend on the processing

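RLE size factors, DESeq2, no filter on low counts, a replicate block and a fit of the compared groups alone left the counts of called genes within 1.5 times, with 1 exception: the count for the active against the dead fusion in the panel was 3676 and became 5839 when the other panel groups were left out of the fit; the cause was not tested. In DMSO the total of 7673 genes became 6417 with DESeq2 and 7529 with no filter, and the 989 genes at least 2-fold lower became 1229 with no filter, where more genes were tested. Leaving out 1 library at a time gave totals of 6944 to 7168 in DMSO, 6723 to 6929 in dTAG13, 1346 to 1698 for the difference between them and 2634 to 2988 in the panel. It gave 181 to 194 genes at least 2-fold higher, 975 to 1026 at least 2-fold lower and a median of the Suz12-responsive genes from -0.557 to -0.541. Of 297 repeats of the 27 genes named by rule as targets or by size, 295 kept their direction and side of the threshold, and the other 2 were those of Rbbp5 given above. Replicate numbers did not pair the libraries: the correlations of same-numbered deviations between the fusion line and RS were -0.0843, -0.135 and 0.0723, and not every library correlated best with its own number. The replicate block gave 7699 genes in DMSO, 7556 in dTAG13, 1774 for the difference and 3919 in the panel. Genes with few counts, such as those of the 2-cell state, are limited by depth.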

Other observations

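Further lists were measured in RS with S12N-SUV2 against RS in DMSO, where 23.3% of all genes tested were higher and 25.4% lower. Of 16 genes of retinoic acid synthesis and response 10 fell and 1 rose (median log2 fold change -0.683). Crabp1, a retinoic acid binding protein, had 14.4, 13.2 and 15.4 CPM in the fusion line and 41.4, 36.7 and 36.8 CPM in RS, with no overlap (-1.42 ± 0.07), and Stra8, a gatekeeper of meiosis, had 0.965, 1.31 and 0.764 CPM against 5.83, 5.37 and 4.95 CPM in the same order (-2.42 ± 0.19). In the panel Stra8 was higher with the active fusion than with the dead one (0.83). Of 37 axon guidance genes 21 fell and 5 rose (median -0.307), with Efnb1 at -1.71 ± 0.13 and Nrp2 at 0.61 ± 0.05.

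Genes of the amino acid stress response had 16 of 28 higher and 6 lower (median 0.153), with Atf4 at 0.69 ± 0.03 and Phgdh at -0.45 ± 0.03; in the panel, where 9.82% of all genes tested were higher and 12.8% lower, 16 members were lower and 1 was higher with the active fusion. Cholesterol synthesis genes had 12 of 24 higher and 3 lower (median 0.131), while in the panel 12 were lower and none higher. Glycolysis and hypoxia genes had 10 of 29 higher and 11 lower (median 0.0164), or 4 and 12 with scaling by library total (median -0.0358). PRC1 subunits had 12 of 26 higher and 7 lower, COMPASS subunits 10 of 20 higher and 3 lower, or 9 and 5 with that scaling, and genes of H3K36 and DNA methylation 9 of 17 higher and 4 lower, or 6 and 4. Numbered KRAB zinc finger genes had 12 of 34 higher and 1 lower, or 10 and 3 with that scaling. Clustered protocadherins had 3 of 20 lower and none higher, and genes of the mitochondrial genome had 1 of 7 higher and none lower, shares below those of all genes. CDK inhibitors had 1 of 7 higher and 3 lower, or none and 4 with scaling by library total, and Y-linked genes 3 of 4 higher and none lower.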
